A study of Mus musculus with 24 samples.

Results

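The 35 genes described here encode proteins of the extracellular matrix of the liver or take part in its deposition during fibrosis. They were chosen by name from a list of matrix and fibrosis genes, and all 35, of the 54432 genes in the table, were found and passed the filter on low values. They comprise 5 fibrillar collagens, 6 basement membrane genes, 4 beaded-filament and fibril-associated collagens, 5 glycoprotein and elastic-fibre genes, 3 small proteoglycans, 3 crosslinking enzymes, 5 proteases or protease inhibitors, and 4 genes of signalling and stellate cells. Ctgf is listed under its current symbol Ccn2. Expression was measured by RNA sequencing of whole liver from male C57BL/6 mice in 4 groups of 6 libraries each. The mice had Trib1 Flox/Flox (labelled Trib1-KO), Cebpa Flox/Flox (Cebpa-KO) or Trib1;Cebpa Flox/Flox (DKO) alleles or were wild type (WT). Every mouse of every group, WT included, was given AAV-Cre, an adeno-associated virus encoding the recombinase that removes floxed DNA, by intraperitoneal injection at 20 to 21 weeks of age. Livers were taken 4 weeks later from chow-fed mice after a 4 h fast, in 2 cohorts of 3 mice per group. The promoter driving Cre is not named in the labels, so the cell types in which it acted are not stated.

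In the healthy liver most matrix genes are expressed by hepatic stellate cells, portal fibroblasts and sinusoidal endothelial cells, and hepatocytes and macrophages contribute some glycoproteins and proteases. During fibrosis stellate cells become myofibroblasts, marked by Acta2, which lay down fibrillar collagens that lysyl oxidases crosslink, while metalloproteinases and their TIMP inhibitors set the rate of turnover. Trib1 encodes a pseudokinase that brings the ubiquitin ligase COP1 to C/EBPα, the hepatocyte transcription factor encoded by Cebpa, for degradation.

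Values are normalized counts, that is estimated counts that the authors scaled for library size. Library totals were 23385895 to 27190701 normalized counts, from an estimated 18640877 to 34286860 reads. Cebpa averaged 2668 ± 359 in the libraries labelled Trib1-KO, 82.2 ± 17.5 in Cebpa-KO and 82.4 ± 18.1 in DKO libraries, against 6019 ± 1057 in WT libraries (SD, n = 6 each). Cebpa was thus also lower in the libraries labelled Trib1-KO, with no overlap with WT (log2 difference -1.16 ± 0.16, limma adjusted p = 5.3e-06). Trib1 averaged 4237 ± 358 in the libraries labelled Trib1-KO, 333 ± 158 in Cebpa-KO and 732 ± 259 in DKO, against 1224 ± 204 in WT (SD, n = 6 each). Trib1 was therefore higher, not lower, in the libraries labelled Trib1-KO (log2 difference 1.81 ± 0.24, limma adjusted p = 3.5e-06), and 1 value per gene cannot show whether the deleted stretch was read. Every direction given for that group is that of the libraries carrying the label. The 3 comparisons with WT share the same WT libraries. Among these, the library in column B3 was the highest of the WT group for 20 of the 35 genes, against 19.8% of all genes tested, and column A1 was the lowest for 19 of the 35, against 19.3% of all genes. Medians over the 35 genes of the log2 difference from the WT mean were 0.39 in B3 and -0.36 in A1, and lay between 0.27 and 0.67 in the libraries labelled Trib1-KO.

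Many of the matrix genes were higher in the libraries labelled Trib1-KO than in WT libraries. Of the 35 genes, 15 passed the test as higher and 0 as lower (limma on log2(value + 1), Benjamini-Hochberg adjusted p under 0.05), which is 42.9%, where 11.8% of all genes tested were higher and 10.9% lower. The median log2 difference over the 35 was 0.40, against 0.01 over all genes tested. The 35 genes were chosen with earlier results of these data known, which limits what their comparison with all genes can show. Among the 15 called genes, the basement membrane gene Nid1, the metalloproteinase inhibitor Timp1 and the vascular basement membrane collagen Col15a1 had the largest differences, and the fibrillar collagen Col3a1 followed. In Cebpa-KO libraries 0 of the 35 were higher and 1 lower than in WT, where 4.60% of all genes tested were higher and 5.22% lower. In DKO libraries 0 were higher and 2 lower, where 2.84% of all genes were higher and 3.25% lower. These small counts lay near the shares of all genes. Because whole tissue was sequenced, more cells of a matrix-producing type and more RNA per cell cannot be told apart.

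**Figure D1:**
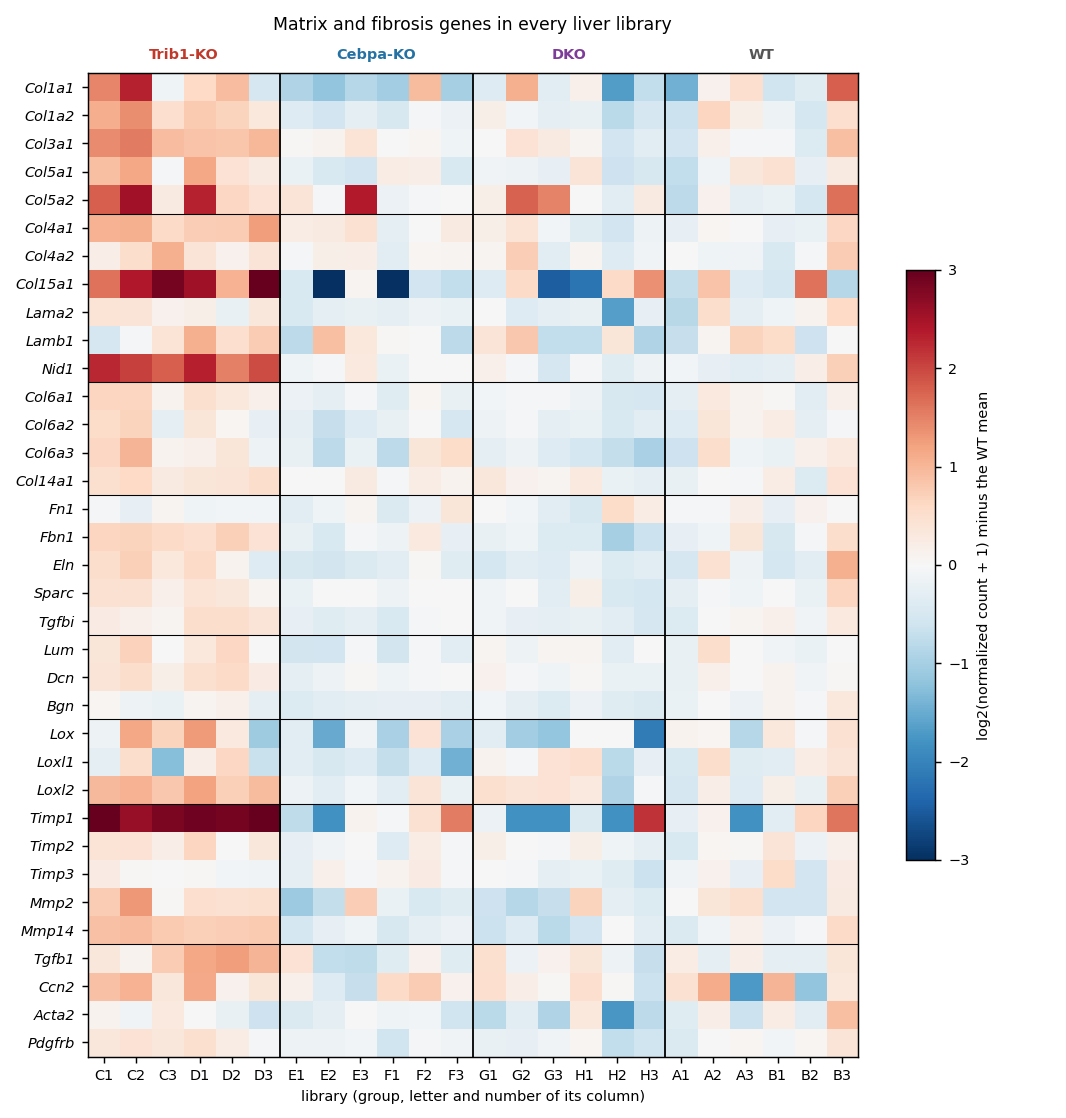
Colour shows log2(normalized count + 1) minus the WT mean for each of the 35 genes (rows, grouped by role) in each of the 24 libraries (columns, named by letter and number), and values beyond 3 in either direction have the end colour. Nid1 and Timp1 are red in all 6 libraries labelled Trib1-KO, and WT library B3 is redder than the other WT libraries in many rows.

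Nid1 encodes nidogen-1, which links the laminin and collagen IV networks of basement membranes (ENSMUSG00000005397.8, chr13:13437551-13512269, plus strand, GRCm38.p6). It had 1442, 2022 and 2525 normalized counts (lowest, median and highest of 6 libraries) among libraries labelled Trib1-KO, 436, 491 and 610 in Cebpa-KO, 354, 464 and 554 in DKO and 404, 446 and 825 in WT. The lowest library labelled Trib1-KO lay above every library of the other 3 groups, and those 3 groups overlapped each other. The log2 difference of the libraries labelled Trib1-KO from WT was 1.99 ± 0.16 (SE; limma adjusted p = 6.7e-10). In Cebpa-KO and DKO libraries it was -0.02 ± 0.16 and -0.17 ± 0.16 from WT (limma adjusted p = 0.97 and 0.65).

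Timp1, the secreted inhibitor of metalloproteinases that is used as a marker of fibrotic activity, lies at chrX:20870166-20874735 (ENSMUSG00000001131.11, plus strand). It was a gene of low level, at 20.7, 25.3 and 40.9 normalized counts among libraries labelled Trib1-KO, 0, 2.63 and 9.15 in Cebpa-KO, 0, 0.812 and 14.8 in DKO and 0, 2.40 and 9.67 in WT. All 6 libraries labelled Trib1-KO were above every other library, and each of the other groups held at least 1 library in which Timp1 was listed at 0. Its log2 difference from WT was 2.97 ± 0.62 in the libraries labelled Trib1-KO (limma adjusted p = 0.00084), on a scale that understates the change of low genes. Timp1 overlaps Syn1 on the opposite strand, and Syn1 had a mean of 9.51 normalized counts over all libraries. The library kit keeps strand, but the strand setting of the counting is not given in the sources used here.

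Mmp14 encodes the membrane-anchored metalloproteinase that activates pro-MMP2 and cleaves fibrillar collagen (ENSMUSG00000000957.11, chr14:54431612-54445364, plus strand). It had 871, 921 and 1011 normalized counts among libraries labelled Trib1-KO, 369, 443 and 486 in Cebpa-KO, 306, 383 and 542 in DKO and 397, 510 and 799 in WT. The libraries labelled Trib1-KO again did not overlap any other group, and their spread was the smallest of the 35 genes in that group, with a coefficient of variation of 5.94%. The log2 difference from WT was 0.80 ± 0.13 in the libraries labelled Trib1-KO (limma adjusted p = 7.4e-05). In DKO libraries Mmp14 was lower than in WT by a log2 difference of -0.45 ± 0.13 (limma adjusted p = 0.046).

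Dcn encodes decorin, a small proteoglycan that binds collagen fibrils and TGF-β. It was the other gene with every library labelled Trib1-KO above every WT library, at 4025, 4831 and 5388 normalized counts in the libraries labelled Trib1-KO and 3100, 3650 and 4012 in WT. Its difference was smaller than those above, with a log2 difference of 0.40 ± 0.08 (limma adjusted p = 0.00058). In all, 4 of the 35 genes (11.4%) were without overlap and higher in the libraries labelled Trib1-KO than in WT, where 6.26% of all genes tested were so.

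The promoters of Nid1, Timp1 and Mmp14 are printed because these 3 non-overlapping genes have a RefSeq promoter entry that starts within 500 bases of the annotated gene start. Bases run 5′ to 3′ on the gene's strand from 250 bases before the RefSeq start, and the Nid1 stretch stops where its annotated exon begins (GRCm38.p6). Capitals mark matches on either strand to 5 short motifs. The CCAAT box was searched as CCAAT. The GC box, which binds SP1-type factors, was searched as GGGCGG. The letters TTGCNNAA stand for a C/EBP-type motif, those of AP-1 were TGANTCA, and the TATA box was searched as TATAAA. In Mmp14 a CCAAT box on the opposite strand and a GC box share 1 letter.
Nid1 (chr13:13437352-13437550, plus strand): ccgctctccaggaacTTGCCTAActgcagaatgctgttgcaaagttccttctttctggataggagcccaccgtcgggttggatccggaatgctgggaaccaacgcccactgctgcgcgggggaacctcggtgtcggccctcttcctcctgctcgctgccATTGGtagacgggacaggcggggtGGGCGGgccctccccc
Timp1 (chrX:20869916-20870165, plus strand): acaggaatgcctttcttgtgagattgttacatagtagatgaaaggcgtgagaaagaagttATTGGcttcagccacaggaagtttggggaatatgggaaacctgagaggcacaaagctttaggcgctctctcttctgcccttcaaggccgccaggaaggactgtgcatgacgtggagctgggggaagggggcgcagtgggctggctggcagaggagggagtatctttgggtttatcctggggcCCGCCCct
Mmp14 (chr14:54431348-54431597, plus strand): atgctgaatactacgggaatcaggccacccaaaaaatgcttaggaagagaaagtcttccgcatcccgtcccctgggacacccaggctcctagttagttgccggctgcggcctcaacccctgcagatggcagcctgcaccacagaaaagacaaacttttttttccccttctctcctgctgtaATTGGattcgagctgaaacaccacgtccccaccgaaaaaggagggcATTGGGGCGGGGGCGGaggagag
All 3 held a CCAAT box and a GC box, and Nid1 alone of the 3 held the C/EBP-type letters. Among 32851 promoter windows of 250 bases, 33.8% held a CCAAT box, 32.7% a GC box, 9.56% the C/EBP-type motif, 6.75% the AP-1 motif and 12.4% a TATA box. Of the 18 windows found for the 35 genes, 7 held a CCAAT box, 12 a GC box, 2 the C/EBP-type motif, 1 the AP-1 motif and 1 a TATA box. For these counts the windows were not cut at the annotated gene start. The window of Timp2 lies wholly within its annotated gene, and others, such as those of Acta2 and Col6a1, lie there in part. A match says only that the letters are present.

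**Figure D2:**
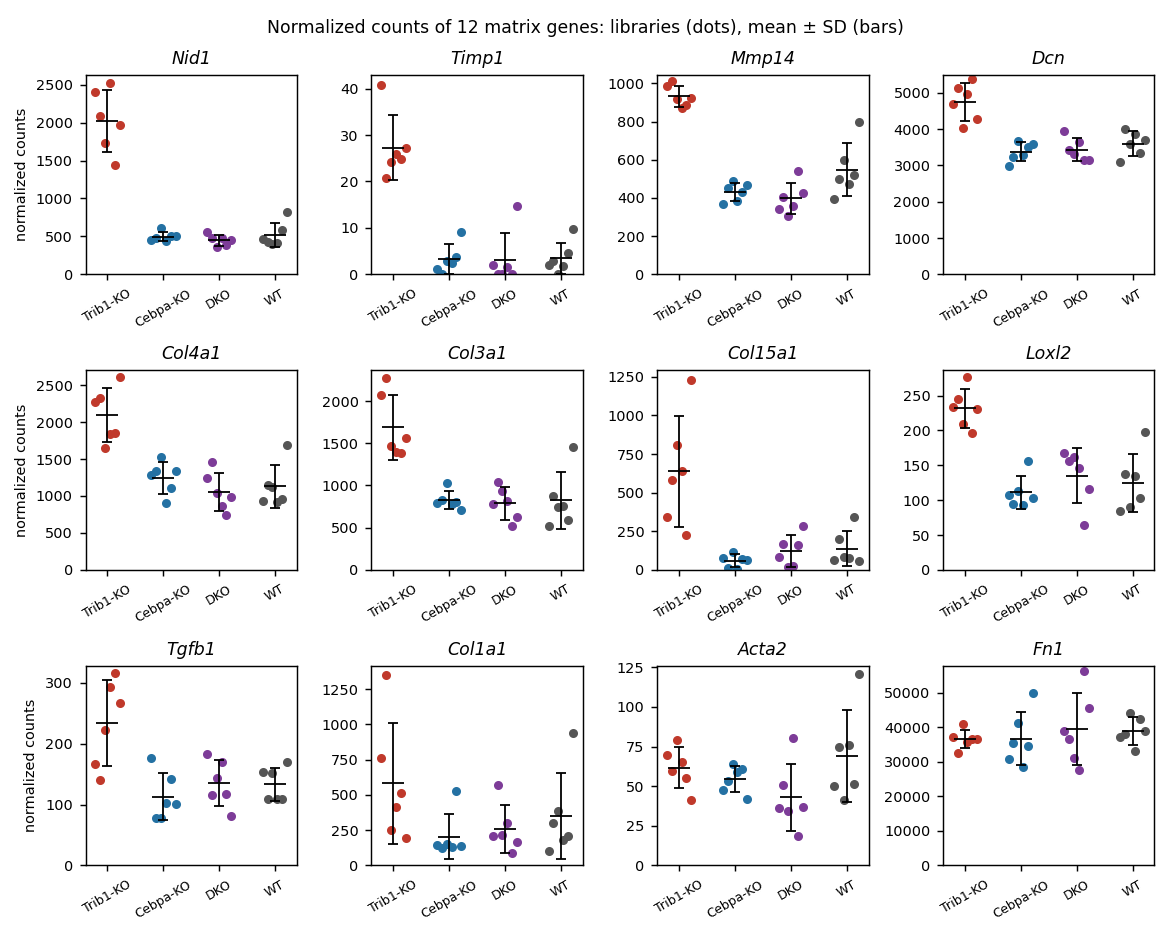
Normalized counts of 12 of the 35 genes in each library (dots, 6 per group) with the group mean and SD (black bars), on linear axes that start at 0. Nid1, Timp1, Mmp14 and Dcn have every library labelled Trib1-KO above every WT library, while Col1a1, Acta2 and Fn1 overlap in all groups.

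Among the fibrillar collagens, which form the banded fibres of scar tissue, 3 of 5 were higher in the libraries labelled Trib1-KO. Col3a1, the chain of collagen III, had 1381, 1511 and 2277 normalized counts among libraries labelled Trib1-KO, 713, 800 and 1025 in Cebpa-KO, 524, 797 and 1045 in DKO and 523, 748 and 1460 in WT. Of the WT libraries, B3 alone reached into the range of the libraries labelled Trib1-KO. The log2 difference was 1.09 ± 0.20 (limma adjusted p = 0.00015). Col1a2, the α2 chain of collagen I, had 546, 727 and 1158 normalized counts in the libraries labelled Trib1-KO and 278, 445 and 681 in WT, with some overlap (log2 difference 0.80 ± 0.21, limma adjusted p = 0.0062). Col5a1, whose collagen V starts fibril assembly, had 245, 410 and 573 in the libraries labelled Trib1-KO and 152, 273 and 350 in WT, and a log2 difference of 0.65 ± 0.23 (limma adjusted p = 0.041). The Col5a1 call was lost when any 1 of the libraries C1, C2, D1, A1, A2 or B2 was left out (log2 differences of 0.50 to 0.63). It was also lost with no filter on low values, under quantile normalization, without the intensity trend or with only the 2 groups compared.

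Col1a1, the α1 chain of collagen I and the usual transcript read for fibrosis, did not pass the test. It had 192, 466 and 1352 normalized counts among libraries labelled Trib1-KO, 120, 140 and 526 in Cebpa-KO, 84.8, 212 and 572 in DKO and 99.4, 256 and 942 in WT. All 4 groups overlapped, and the spread within the libraries labelled Trib1-KO (coefficient of variation 73.8%) and within WT (86.5%) was among the widest of the 35 genes. The log2 difference of the libraries labelled Trib1-KO from WT was 0.78 ± 0.51 (limma adjusted p = 0.32), close to that of Col1a2 with a larger error. The ratio of Col1a1 to Col1a2 counts in a library had a median of 0.637 for the libraries labelled Trib1-KO, against 0.559 for WT. The log2 difference of the ratio was -0.02 ± 0.41 (2-sided exact permutation p = 0.972, adjusted p = 0.972 over 6 tests). These tests covered this ratio and that of Col4a1 to Col4a2 in each comparison with WT. The ratios were chosen after their values were seen. Col5a2, a second chain of collagen V that lies beside Col3a1 on chromosome 1, had 93.5, 196 and 449 in the libraries labelled Trib1-KO and 44.8, 65.3 and 244 in WT. Its log2 difference of 1.32 ± 0.49 did not pass the test (limma adjusted p = 0.055).

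Of the 6 basement membrane genes, Nid1, Col4a1 and Col15a1 were higher in the libraries labelled Trib1-KO, and Col4a2, Lama2 and Lamb1 did not pass the test. Col4a1, a main chain of the collagen IV network, had 1656, 2061 and 2611 normalized counts among libraries labelled Trib1-KO, 902, 1308 and 1521 in Cebpa-KO, 740, 1016 and 1455 in DKO and 924, 1040 and 1685 in WT. Library B3 was the only WT library that reached into the range of the libraries labelled Trib1-KO. The log2 difference was 0.91 ± 0.16 (limma adjusted p = 0.00016). Its partner chain Col4a2 is transcribed head to head from the same stretch of chromosome 8, and the annotated genes overlap by 22 bases. Col4a2 had 832, 1005 and 1601 in the libraries labelled Trib1-KO and 555, 725 and 1302 in WT (log2 difference 0.45 ± 0.19, limma adjusted p = 0.09).

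The ratio of Col4a1 to Col4a2 counts was 1.03, 2.16 and 2.60 (lowest, median and highest) in the libraries labelled Trib1-KO and 1.22, 1.43 and 1.66 in WT. Library C3, which had the lowest ratio of its group, lay below the WT range. The log2 difference of the ratio was 0.46 ± 0.22 (2-sided exact permutation p = 0.0649 over 924 arrangements, adjusted p = 0.39 over the 6 tests of ratios). Without C3 the difference was 0.64, with an unadjusted exact permutation p of 0.00216, the smallest that 5 against 6 libraries can give. Leaving out any other single library gave 0.38 to 0.50, with unadjusted exact permutation p-values of 0.0649 to 0.126. The ratio was therefore not called over the 6 tests with all libraries.

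Col15a1 encodes a collagen and proteoglycan of vascular and muscle basement membranes, and is also expressed by portal fibroblasts. It had 227, 612 and 1232 normalized counts among libraries labelled Trib1-KO, 8.67, 69.2 and 117 in Cebpa-KO, 19.0, 123 and 285 in DKO and 59.9, 79.5 and 343 in WT. The range within each group was wide, and WT library B2 lay within the range of the libraries labelled Trib1-KO. The log2 difference was 2.33 ± 0.69 (limma adjusted p = 0.016). Of the laminin chains, which build the sheet that nidogen anchors, Lama2 had a log2 difference of 0.20 ± 0.24 and Lamb1 of 0.37 ± 0.34 (limma adjusted p = 0.62 and 0.5).

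In the group of beaded-filament and fibril-associated collagens, 2 of 4 passed the test. Col14a1, which coats fibrils, had 1913, 2148 and 2424 normalized counts in the libraries labelled Trib1-KO and 1200, 1581 and 2156 in WT (log2 difference 0.44 ± 0.12, limma adjusted p = 0.0088). Col6a1, a chain of the microfibrillar collagen VI, had 299, 370 and 439 in the libraries labelled Trib1-KO and 222, 294 and 345 in WT (log2 difference 0.39 ± 0.13, limma adjusted p = 0.025). The other collagen VI chains had log2 differences of 0.19 ± 0.16 (Col6a2) and 0.34 ± 0.23 (Col6a3) and did not pass (limma adjusted p = 0.46 and 0.33). Leaving out any 1 of C1, C2, D1, A1 or B2 ended the Col6a1 call (log2 differences of 0.32 to 0.37). A fit of only the 2 groups compared also ended it.

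Fbn1 and Tgfbi were higher among the 5 glycoprotein and elastic-fibre genes. Fbn1, the fibrillin of the microfibrils that store latent TGF-β, had 157, 177 and 188 normalized counts in the libraries labelled Trib1-KO and 81.8, 109 and 167 in WT (log2 difference 0.59 ± 0.16, limma adjusted p = 0.0097). Tgfbi, a TGF-β-induced adhesion protein, had 1148, 1354 and 1573 in the libraries labelled Trib1-KO and 819, 1120 and 1344 in WT (log2 difference 0.32 ± 0.11, limma adjusted p = 0.036). The Tgfbi call was lost without any 1 of D1, D2, D3, A1, A2 or B2 (log2 differences of 0.23 to 0.31). It was also lost with no filter on low values, without the intensity trend or with only the 2 groups compared. Fn1, fibronectin, which hepatocytes secrete into plasma, was the most abundant of the 35 per length among WT libraries and among libraries labelled Trib1-KO, with a median of 3129 normalized counts per kb of exon for the libraries labelled Trib1-KO, against 3294 for WT. Its log2 difference was -0.09 ± 0.14 (limma adjusted p = 0.72). Eln, elastin, and Sparc, a collagen-binding matricellular protein, had log2 differences of 0.31 ± 0.23 and 0.31 ± 0.13 and did not pass (limma adjusted p = 0.37 and 0.083).

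The small proteoglycans differed among themselves, with Dcn higher while Lum (log2 difference 0.33 ± 0.15, limma adjusted p = 0.12) and Bgn (-0.06 ± 0.09, limma adjusted p = 0.69) did not pass. Of the lysyl oxidase family, which crosslinks collagen and elastin, Loxl2 alone passed the test, at 196, 232 and 276 normalized counts in the libraries labelled Trib1-KO and 84.3, 119 and 198 in WT. B3 was the only WT library within the range of the libraries labelled Trib1-KO. The log2 difference of Loxl2 was 0.95 ± 0.21 (limma adjusted p = 0.0017), against 0.36 ± 0.42 for Lox and -0.15 ± 0.31 for Loxl1 (limma adjusted p = 0.62 and 0.79). Per length, Lox had the lowest median of the 35 genes in WT, at 1.83 normalized counts per kb of exon. Apart from Timp1 and Mmp14, the protease and inhibitor genes did not pass, with log2 differences of 0.33 ± 0.13 for Timp2, 0.02 ± 0.14 for Timp3 and 0.59 ± 0.29 for the gelatinase Mmp2 (limma adjusted p = 0.068, 0.95 and 0.16).

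Tgfb1, the main fibrogenic cytokine of the liver, was the 1 gene of 4 in the signalling and stellate cell group that passed. It had 141, 245 and 316 normalized counts among libraries labelled Trib1-KO, 77.3, 102 and 177 in Cebpa-KO, 81.3, 131 and 183 in DKO and 109, 130 and 169 in WT. The groups overlapped, with C1 and C2 lowest among the libraries labelled Trib1-KO. Its log2 difference from WT in the libraries labelled Trib1-KO was 0.77 ± 0.23 (limma adjusted p = 0.016). Acta2, smooth muscle actin and the classical myofibroblast marker, had 41.3, 62.5 and 79.1 in the libraries labelled Trib1-KO and 41.1, 62.9 and 121 in WT (log2 difference -0.09 ± 0.27, limma adjusted p = 0.86). The PDGF receptor Pdgfrb, a stellate cell surface gene, had a log2 difference of 0.29 ± 0.14 (limma adjusted p = 0.15). Ccn2, a matricellular protein induced by TGF-β, had one of 0.65 ± 0.38 (limma adjusted p = 0.25).

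**Figure D3:**
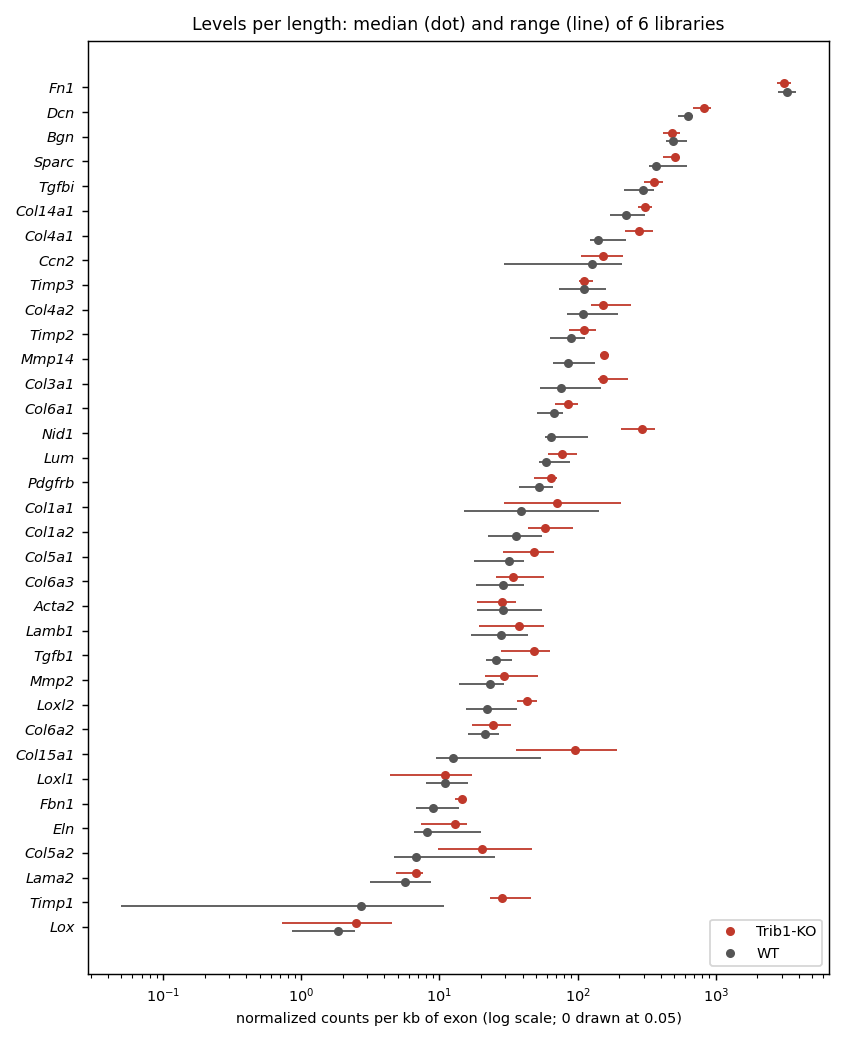
Normalized counts per kb of annotated exon (log axis) for the 35 genes, with libraries labelled Trib1-KO in red and WT in grey, ordered by the WT median, with dots for the median and lines for the range of 6 libraries. Nid1 and Timp1 stand clear of their WT ranges, and Fn1 is at the top with overlapping ranges.

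Library composition changed between these groups. Major urinary protein (Mup) transcripts took 21.4 to 27.4% of the total in the libraries labelled Trib1-KO and 2.99 to 8.89% in WT. Scaled to totals without Mup genes, the median of all genes tested shifted by 0.24 in the libraries labelled Trib1-KO against WT, and the 35 genes had a median of 0.65 with 22 higher and 0 lower. Under quantile normalization the 35 had a median of 0.44 with 14 higher and 0 lower, and the median of all genes was -0.05. The share of all genes called was not computed under either scaling, so these counts cannot be set against a background. The Mup-free scaling multiplies all genes of a library by the same factor, so it cannot change how the 35 stand against all genes. Tgfbi, for example, moved from 0.32 to 0.57 with that shift. The 15 called genes were positive under both scalings, but the Col5a1 call was lost under quantile normalization.

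In Cebpa-KO libraries, which lacked most of the Cebpa transcript, the matrix genes lay near or slightly below their WT levels. The median log2 difference over the 35 genes was -0.18, against 0.01 over all genes tested. Only 7 of the 35 differences were positive, where 51.1% of all genes tested were so. Of the 35 genes, 0 were higher and 1 was lower (2.86%), where 4.60% of all genes were higher and 5.22% lower. The called gene was Bgn, biglycan, at 2301, 2455 and 2577 normalized counts in Cebpa-KO and 2641, 2996 and 3777 in WT. No library of Cebpa-KO overlapped WT for Bgn (1 of 35 genes, 2.86%, against 2.65% of all genes lower without overlap). Its log2 difference was -0.31 ± 0.09 (limma adjusted p = 0.022). The call was lost without WT library B3 (log2 difference -0.25), which leaves 0 of the 35 called. Col15a1 had the lowest difference, at -1.44 ± 0.69, and did not pass the test (limma adjusted p = 0.22).

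In DKO libraries, in which both genes were floxed, 0 of the 35 genes were higher and 2 were lower than in WT (5.71%), where 2.84% of all genes were higher and 3.25% lower. The median log2 difference was -0.22, against 0.003 over all genes tested. Only 5 of the 35 differences were positive, where 50.5% of all genes tested were so. Bgn had 2252, 2435 and 2870 normalized counts in DKO and 2641, 2996 and 3777 in WT, which overlapped (log2 difference -0.29 ± 0.09, limma adjusted p = 0.044). Mmp14, given above, was the second. Both calls were close to the threshold, and 0 genes were called without any 1 of G2, G3, H3, A2, B2 or B3, and 1 was called without G1, H2 or A3. The Bgn call was lost without any 1 of G2, G3, H2, H3, A2, B1, B2 or B3 (-0.23 to -0.30), and that of Mmp14 without G1, G2, G3, H1, H3, A2, A3, B2 or B3 (-0.34 to -0.48). Acta2 had 18.7, 36.6 and 80.1 normalized counts in DKO and 41.1, 62.9 and 121 in WT, and did not pass (log2 difference -0.71 ± 0.27, limma adjusted p = 0.14).

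**Figure D4:**
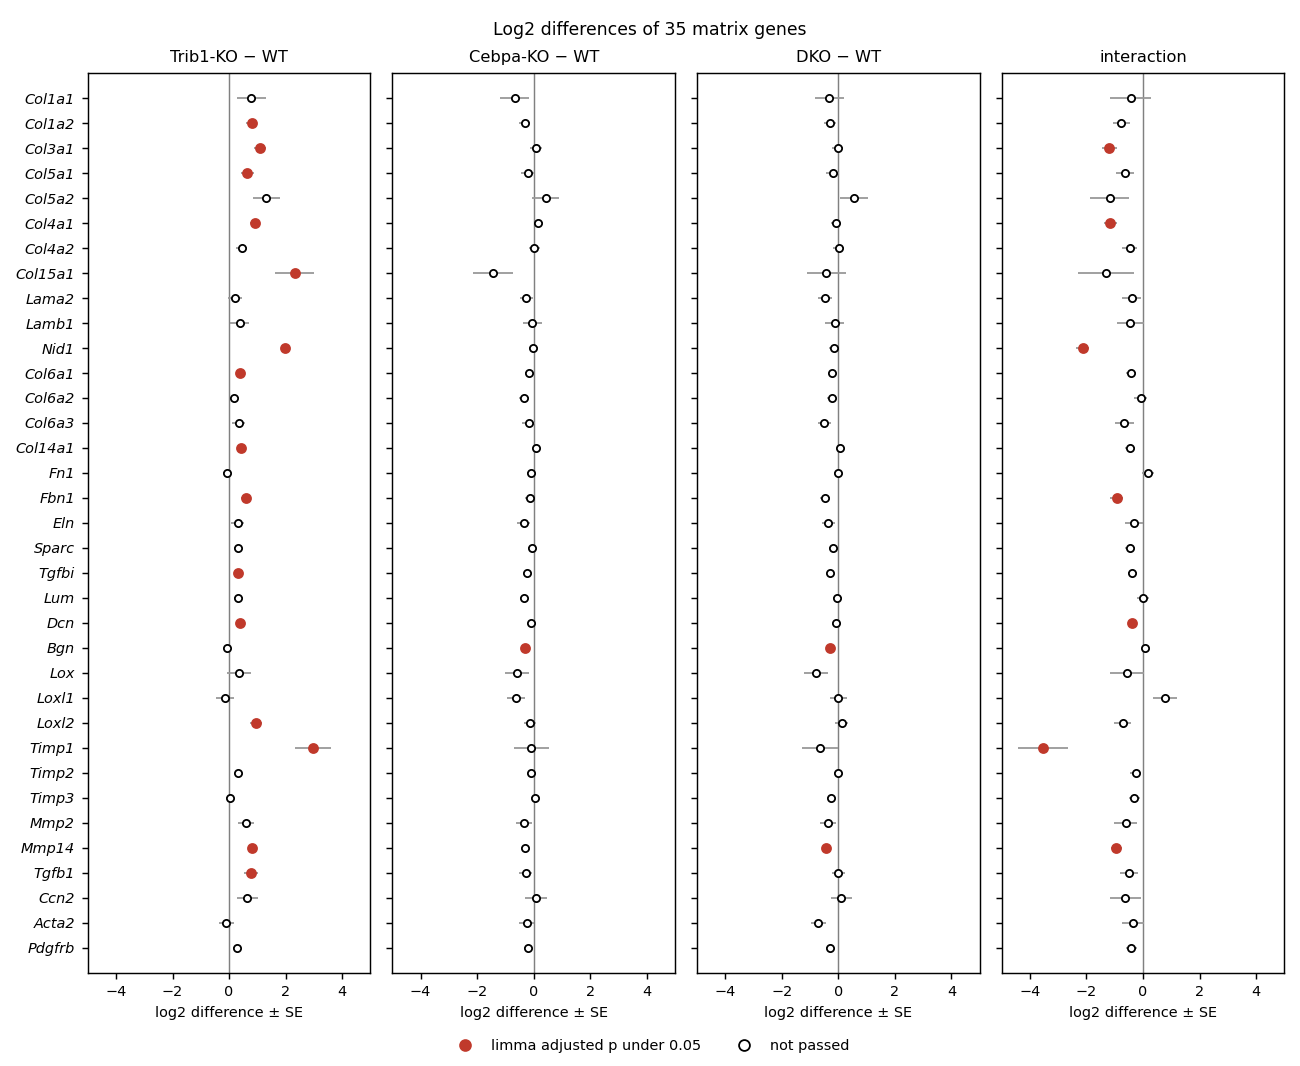
Log2 differences with their standard errors for the 35 genes in the 3 comparisons with WT and in the interaction, which is the difference of DKO from Cebpa-KO minus that of the libraries labelled Trib1-KO from WT, with filled red dots for a limma adjusted p under 0.05. Filled dots number 15, 1, 2 and 7 from left to right.

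The contrast of DKO with Cebpa-KO libraries asks what the additional floxed Trib1 alleles changed where Cebpa was already reduced. Trib1 itself was already lower in Cebpa-KO than in WT, without overlap (log2 difference -1.96 ± 0.24, limma adjusted p = 4.1e-06). It was higher in DKO than in Cebpa-KO (1.13 ± 0.24, limma adjusted p = 0.046). Of the 35 genes, 0 passed the limma test in either direction, where 0.202% of all genes did, and 1 had an unadjusted p under 0.05. The same count of 0 was found with each of the 9 other settings of the fit. The median log2 difference was -0.02. Nid1 had 354, 464 and 554 normalized counts in DKO and 436, 491 and 610 in Cebpa-KO (log2 difference -0.15 ± 0.16, limma adjusted p = 0.83). Timp1 had a log2 difference of -0.56 ± 0.62 (limma adjusted p = 0.84).

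The DKO libraries were lower than the libraries labelled Trib1-KO in most of the matrix genes. Of the 35, 25 (71.4%) were lower and 0 higher, where 15.7% of all genes were lower and 14.6% higher. The median log2 difference was -0.67, against -0.02 over all genes tested. This contrast and the one with WT share the libraries labelled Trib1-KO. In 11 of the 35 genes (31.4%) every DKO library was below every library labelled Trib1-KO, where 8.74% of all genes were so. These were Col1a2, Col3a1, Col4a1, Col6a1, Fbn1, Dcn, Loxl2, Timp1, Mmp14, Tgfbi and Nid1. The log2 differences of DKO from the libraries labelled Trib1-KO were -2.15 ± 0.16 for Nid1, -3.62 ± 0.62 for Timp1 and -1.25 ± 0.13 for Mmp14 (limma adjusted p = 7.5e-11, 6e-05 and 6.1e-08).

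Of the 25, 10 genes had not passed the test of the libraries labelled Trib1-KO against WT. They included Pdgfrb, at 166, 239 and 290 normalized counts in DKO and 266, 355 and 389 in the libraries labelled Trib1-KO (log2 difference -0.60 ± 0.14, limma adjusted p = 0.0017). Sparc had 1040, 1284 and 1687 in DKO and 1579, 1933 and 2040 in the libraries labelled Trib1-KO (-0.52 ± 0.13, limma adjusted p = 0.0027), and Col6a3 and Mmp2 had log2 differences of -0.84 ± 0.23 and -0.95 ± 0.29 (limma adjusted p = 0.0069 and 0.013). The calls of Col6a2, Eln, Bgn, Lox, Timp2 and Lama2 had adjusted p values of 0.026 to 0.047, and each was lost on leaving out any 1 of several libraries. For Col6a2 these were G1, G3, H1, H2, H3, C1, C2, D1 or D2 (-0.34 to -0.46), for Bgn G2, G3, H2, H3, C1, D1 or D2 (-0.19 to -0.23) and for Eln G1, C1, C2 or D1 (-0.59 to -0.63). For Lox they were G2, G3, H3, C2, C3, D1 or D2 (-0.87 to -1.15), for Timp2 G2, G3, H2, H3, C1, C2, D1 or D3 (-0.29 to -0.36) and for Lama2 H2, C1, C2, D1 or D3 (-0.43 to -0.67). The calls of Col6a2, Eln, Bgn, Lox, Timp2 and Lama2 were each also lost with no filter on low values, under quantile normalization or both. Col14a1, called in both contrasts, was lost in this one without H2 or H3 (-0.32 and -0.31). Fn1 did not pass in this contrast either, with a log2 difference of 0.07 ± 0.14 (limma adjusted p = 0.76).

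Whether the difference associated with floxed Trib1 depended on Cebpa was tested with the interaction. It passed for 7 of the 35 genes (20%), all negative, where 6.22% of all genes were called negative and 6.35% positive. These were Nid1 (-2.14 ± 0.22, limma adjusted p = 2.1e-07), Timp1 (-3.53 ± 0.88, 0.0079), Mmp14 (-0.94 ± 0.19, 0.0013), Col4a1 (-1.16 ± 0.23, 0.001), Col3a1 (-1.19 ± 0.28, 0.0045), Fbn1 (-0.92 ± 0.23, 0.0084) and Dcn (-0.37 ± 0.11, 0.029). In each of them the libraries labelled Trib1-KO exceeded WT, and DKO did not differ from Cebpa-KO beyond the test's threshold. The Dcn call was lost without any 1 of C2, D2, E3, H3, A1 or B2 (-0.33 to -0.35), and also without the intensity trend. With totals without Mup genes 14 of the 35 were called, all negative, and the median of all genes shifted by -0.24. The share of all genes called in that run was not computed. Col1a2, Col15a1, Loxl2 and Tgfb1, which were higher in the libraries labelled Trib1-KO than in WT, had interactions of -0.76 ± 0.29, -1.31 ± 0.98, -0.71 ± 0.30 and -0.50 ± 0.33 and did not pass (limma adjusted p = 0.098, 0.45, 0.13 and 0.37).

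Other genes of the matrix were read from lists of related genes. In the libraries labelled Trib1-KO against WT, 10 of 30 proteases and inhibitors were higher and 3 lower, where 11.8% of all genes tested were higher and 10.9% lower. The count of lower ones lay near the share of all genes. Mmp12, the macrophage elastase, had 556, 994 and 1063 normalized counts in the libraries labelled Trib1-KO and 10.7, 14.4 and 36.7 in WT (log2 difference 5.73 ± 0.29, limma adjusted p = 2e-13). Mmp13, the main rodent interstitial collagenase, had 51.0, 106 and 162 in the libraries labelled Trib1-KO and 0, 3.80 and 8.51 in WT (4.65 ± 0.45, limma adjusted p = 2.1e-08). Neither protease overlapped WT. Adamts1, a proteoglycan-cleaving protease, had a log2 difference of 1.59 ± 0.15 (limma adjusted p = 1.2e-08).

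Of the collagens outside the 35, 2 of 19 were higher and 2 lower, near the shares of all genes tested (11.8% higher and 10.9% lower). Col12a1, a fibril-associated collagen, had 329, 472 and 534 normalized counts in the libraries labelled Trib1-KO and 15.4, 53.1 and 95.0 in WT (log2 difference 3.22 ± 0.31, limma adjusted p = 2.2e-08). Col18a1, the endostatin-bearing basement membrane collagen that hepatocytes express, was lower (-0.58 ± 0.08, limma adjusted p = 4.1e-06), as was Col27a1 (-2.12 ± 0.24, limma adjusted p = 2.3e-07). Of 16 other basement membrane genes 1 was higher and 3 lower, to be read against the same shares. The higher one was the laminin chain Lamc1 (0.97 ± 0.17, limma adjusted p = 0.00017). The 3 that were lower included the dystroglycan gene Dag1 (-0.34 ± 0.06) and the laminin chain Lama3 (-0.77 ± 0.23; limma adjusted p = 0.00036 and 0.015).

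In the list of collagen folding, processing and crosslinking genes 4 of 25 were higher and 3 lower, again close to the 11.8% and 10.9% of all genes tested. The collagen galactosyltransferase Colgalt1 was higher (0.42 ± 0.07), and the procollagen export factor Mia3 (-0.74 ± 0.08) and the procollagen C-proteinase Bmp1 (-0.66 ± 0.11) were lower (limma adjusted p = 2.6e-05, 1.2e-07 and 4.8e-05). Of 34 elastic-fibre, proteoglycan and matricellular genes 6 were higher and 3 lower, also not far from those shares. The higher ones included Thbs1, thrombospondin-1, an activator of latent TGF-β (2.29 ± 0.38, limma adjusted p = 6.3e-05). The 3 lower ones included vitronectin, Vtn (-1.34 ± 0.12), and osteomodulin, Omd (-2.67 ± 0.33; limma adjusted p = 5.6e-09 and 1.3e-06). Among 30 TGF-β and PDGF pathway genes 7 were higher and 1 lower, beside the same 11.8% and 10.9%. The TGF-β receptors Tgfbr2 (1.82 ± 0.14) and Tgfbr1 (0.34 ± 0.08) and the SMAD co-repressor Ski (0.53 ± 0.09) were higher (limma adjusted p = 7.3e-10, 0.0018 and 5.7e-05).

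Against WT, each of the same lists held at most 2 calls in either direction in Cebpa-KO, where 4.60% of all genes tested were higher and 5.22% lower, and at most 4 in DKO, where 2.84% were higher and 3.25% lower. The collagen V chain Col5a3 was lower in both, with log2 differences of -1.45 ± 0.14 in Cebpa-KO and -1.09 ± 0.14 in DKO (limma adjusted p = 9.3e-08 and 1.1e-05). Osteopontin, Spp1, was higher in both (1.66 ± 0.21 and 1.65 ± 0.21; limma adjusted p = 4.6e-06 and 9.9e-06). Mmp15, a membrane-type metalloproteinase, was also higher in both (1.32 ± 0.18 and 0.94 ± 0.18; limma adjusted p = 1.9e-05 and 0.002), and Loxl4, a lysyl oxidase, was lower (-1.39 ± 0.32 and -1.12 ± 0.32; limma adjusted p = 0.0044 and 0.032). Mia3, lower in the libraries labelled Trib1-KO, was higher in Cebpa-KO (0.51 ± 0.08) and DKO (0.40 ± 0.08; limma adjusted p = 9.1e-05 and 0.002).

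Markers of the cells that could supply these transcripts were read against the same background of 11.8% of all genes higher and 10.9% lower in the libraries labelled Trib1-KO. Of 19 hepatic stellate and myofibroblast markers, 2 were higher in the libraries labelled Trib1-KO than in WT and 1 was lower. The higher ones were the retinol acyltransferase Lrat (0.59 ± 0.15, limma adjusted p = 0.0059) and the intermediate filament gene Nes (0.70 ± 0.24, limma adjusted p = 0.039). The lower one was the tropomyosin Tpm2 (-1.04 ± 0.35, limma adjusted p = 0.031). The summed level of the 19 markers was 8897 to 11250 normalized counts in the libraries labelled Trib1-KO, 9022 to 10650 in Cebpa-KO, 7802 to 11780 in DKO and 8570 to 11810 in WT, so the groups overlapped. Of 14 portal fibroblast and mesothelial markers 0 passed in the libraries labelled Trib1-KO against WT. In that comparison 12 of the 14 had positive log2 differences, where 50.7% of all genes tested did. Their median was 0.32, against 0.40 over the 35 matrix genes. Sums over the 13 that are not among the 35 genes were 1399 to 1890 in the libraries labelled Trib1-KO, 1048 to 1460 in Cebpa-KO, 1045 to 1469 in DKO and 995 to 1600 in WT. Gas6 was the largest part of these sums, with medians of 996, 820, 691 and 839 in the same order. Sinusoidal endothelial markers were 1 higher and 3 lower of 12, and their sums were 14150 to 15860 in the libraries labelled Trib1-KO, 14710 to 17430 in Cebpa-KO, 13030 to 15980 in DKO and 13970 to 16000 in WT.

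Kupffer cell and macrophage markers were higher in the libraries labelled Trib1-KO for 10 of 12, where 11.8% of all genes tested were higher, among them Cd68 (1.37 ± 0.20) and Adgre1 (1.11 ± 0.23; limma adjusted p = 9.6e-06 and 0.00084). Their sums were 16680 to 20200 normalized counts in the libraries labelled Trib1-KO, 10970 to 15340 in Cebpa-KO, 10030 to 15570 in DKO and 8703 to 15870 in WT. The highest WT sum was again that of B3. Of 12 recruited macrophage and monocyte markers 9 were higher in the libraries labelled Trib1-KO, including Gpnmb (5.71 ± 0.64) and Trem2 (2.54 ± 0.37; limma adjusted p = 2.3e-07 and 1.1e-05). Without Fn1, these summed to 3456 to 4826 in the libraries labelled Trib1-KO, 3187 to 8521 in Cebpa-KO, 3247 to 6099 in DKO and 1533 to 2103 in WT. In Cebpa-KO and DKO most of that sum was Spp1, with medians of 749 normalized counts in the libraries labelled Trib1-KO, 2734 in Cebpa-KO, 3126 in DKO and 1014 in WT. Trem2, by contrast, had medians of 86.5, 10.0 and 16.8 in these 3 genotypes and 17.0 in WT, and Mmp12 had 994, 11.1, 16.8 and 14.4 in the same order. The sums therefore do not show the list as a whole to be higher in Cebpa-KO or DKO, where 1 of its 12 genes was called. Cholangiocyte markers were 0 higher and 4 lower of 11, lymphocyte markers 3 higher and 0 lower of 12, and hepatocyte markers 0 higher and 10 lower of 12. Hepatocyte marker sums were 1209000 to 1333000 in the libraries labelled Trib1-KO, 3322000 to 4152000 in Cebpa-KO, 3209000 to 3907000 in DKO and 2610000 to 3454000 in WT. Alb was the largest part of these sums, with medians of 361800, 2395000, 1990000 and 1370000 in the same order. In Cebpa-KO 3 of the 12 were higher and 2 lower, where 4.60% and 5.22% of all genes tested were so. In DKO 1 was higher and 2 lower, where 2.84% and 3.25% were so. These hepatocyte sums therefore do not show that list as a whole to be higher in Cebpa-KO or DKO. No marker of any list was at 0 in all libraries. The part of these cell types, and of the Mup share, in the differences of the matrix genes was not tested.

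**Figure D5:**
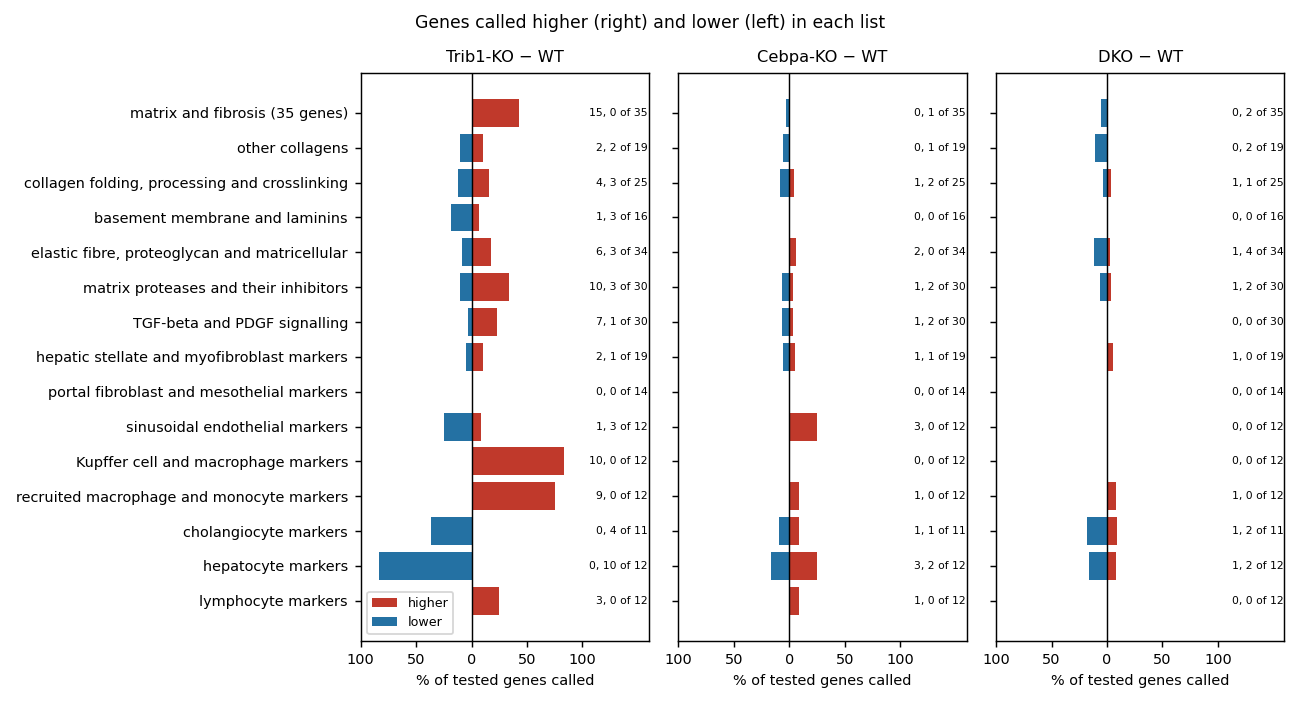
Share of the tested genes of each list called higher (red, to the right) or lower (blue, to the left) at a limma adjusted p under 0.05 in the 3 comparisons with WT, with the counts higher and lower beside each bar. In the libraries labelled Trib1-KO the 35 matrix and fibrosis genes have 15 higher and 0 lower, and Kupffer cell and macrophage markers have 10 higher and 0 lower of 12.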

How the data were processed

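RNA was read from whole mouse liver with a stranded poly(A) library kit, per the labels' protocols, and Salmon, DESeq2 and the build GRCm38.p6 are named in the submitters' processing notes. The deposited values have the unit signal. Judged from the values, they are estimated counts of each gene that the authors scaled with library size factors. Between 64.2 and 69.7% of low values were whole multiples of the value of 1 read, so whole reads could not be recovered and no count test was run. Identifiers (54050, 99.3%) were matched to GENCODE M21, whose coordinates and exon lengths were used. Promoter windows are from RefSeq (GRCm38.p6), with 18 of 35 genes matched. Columns name a group, a letter and a number but no mouse, so cohorts could not be assigned to columns, no cohort term was fitted, and cohort and library cannot be told apart. Nothing ties a column to a mouse, so p-values measure the spread between these libraries.

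Limma 3.58.1 in R 4.3.3 was fitted with an intensity trend to log2(value + 1) of the 19810 genes whose mean reached 1, with 4 group means and 24 libraries, and p-values were adjusted by the Benjamini-Hochberg method over all genes tested, with calls at 0.05. The fit was first tested on simulated data. Single ratios were compared with exact permutation tests over libraries. Depth and alternatives (pseudocounts of 0.5 and 10, no filter or a mean of at least 10, quantile normalization, totals without Mup genes, no trend, array weights, only the 2 groups compared, and each library left out) are given with their effect. The genes and lists were chosen with earlier results of these data known. All 35 genes are named, with ranges of the groups compared for those called against WT. From each other matrix list and comparison with WT, up to 3 called genes with the smallest adjusted p and a mean of at least 10 were the candidates for naming. The ratios and the named marker genes were chosen after their values were seen. Figures were drawn with matplotlib 3.10.9.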

Additional observations from a re-analysis of the deposited data

Results flagged for a closer look

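In 12 of 140 groups of 6 libraries (35 genes in 4 groups), 1 library stood far from the others on the log2 scale by Dixon's test, where chance flags about 1 in 20 groups. In Cebpa-KO, Col1a1 had 526 normalized counts in library F2, where the others had 120 to 151. In the same library Eln had 79.9 (others 52.2 to 61.2) and Loxl2 had 157 (others 93.7 to 113). Col5a2 had 405 in Cebpa-KO library E3 (others 68.4 to 101), Loxl1 had 12.8 in F3 (others 22.1 to 28.7) and Pdgfrb had 185 in F1 (others 252 to 269). In DKO, Lama2 had 28.7 in H2 (others 71.0 to 93.2). In WT, library B3 had 1685 for Col4a1 (others 924 to 1155), 1302 for Col4a2 (others 555 to 761) and 2328 for Sparc (others 1245 to 1485), Lum had 216 in A2 (others 129 to 152) and Lox had 4.09 in A3 (others 8.03 to 11.7). None of these flags fell on a library labelled Trib1-KO.

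In 7 genes the difference of DKO from Cebpa-KO differed from that of the libraries labelled Trib1-KO from WT in the limma interaction test. The log2 interactions were -2.14 for Nid1, -3.53 for Timp1, -0.94 for Mmp14, -1.16 for Col4a1, -1.19 for Col3a1, -0.92 for Fbn1 and -0.37 for Dcn, with adjusted p values given above.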

How the results depend on the processing

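Of 50 calls of single genes across the 6 comparisons, 36 held in every alternative run that tested the gene, 14 were lost in at least 1, and 0 reversed. Timp1 and Lox did not pass the filter of a mean of at least 10, so their calls were not tested in that run. Leaving out 1 library at a time gave 12 to 18 genes called for the libraries labelled Trib1-KO against WT (15 with all libraries), 0 to 1 for Cebpa-KO against WT, 0 to 3 for DKO against WT, 0 to 0 for DKO against Cebpa-KO, 6 to 10 for the interaction and 19 to 25 for DKO against the libraries labelled Trib1-KO. Under the other alternatives the libraries labelled Trib1-KO against WT had 12 to 22, and DKO against the libraries labelled Trib1-KO 20 to 30. The shares of all genes called in the alternative runs were not computed, so these counts have no background beside them. Cebpa-KO against WT had 0 under quantile normalization. DKO against WT had 0 with no filter, without a trend or with only the 2 groups compared, and 1 under quantile normalization or with array weights. The interaction had 14 with totals without Mup genes. The causes were not tested. The Mup-free totals shifted the median of all genes by -0.29 for DKO against the libraries labelled Trib1-KO. No paired analysis was possible because the sample numbers in the labels are unique to each mouse, the columns are not tied to them, and no label says what the letters and numbers of the columns stand for. Timp1, Lox and Mmp13 lie near the floor of a few reads, which limits their folds, and intervals of single libraries were not computed because whole reads could not be recovered.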
